A study of Homo sapiens with 22 samples.

Results

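The genes examined were the POU2F factors POU2F1, POU2F2 and POU2F3 and the paired-related homeobox factors PRRX1 and PRRX2, which were chosen by name because OCT2 (the protein of POU2F2) and PRRX1 were put forward as effectors of SETD2 loss. Rows were found for 4 of these 5 genes among the 36859 genes of the RNA-seq table. PRRX2 was not analysed here. The libraries came from RPTEC, human renal proximal tubule epithelial cells immortalized with hTERT, in 11 groups of 2 replicates (22 libraries). WT cells, WT cells kept for 72 h with TGF-β at 10 ng/mL, KO1, KO2 and a line labelled KO2 rescue were grown in 2% serum. WT, KO1, KO2 and KO2 rescue are listed at 0 h. Comparisons with the TGF-β libraries may thus also differ in time in culture, which cannot be told apart. KO1 and KO2 are each a single clone edited with CRISPR in exon 3 of SETD2. Grown in regular medium, with 10% serum, were Rescue1 and Rescue2, which are single-colony clones of KO cells carrying a lentiviral full-length SETD2, and WT cells carrying a lentivirus for eGFP, OCT2, PRRX1 or SOX2, selected in bulk with puromycin. Labels do not say whether the replicates were separate cultures, so p-values measure the spread between these libraries, which may be technical.

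POU2F factors carry a POU-specific domain and a POU homeodomain and bind the octamer ATGCAAAT. POU2F1 is made in most cell types, POU2F2 is best known from B cells, and POU2F3 is the lineage factor of tuft cells. PRRX1 and PRRX2 are homeodomain factors of the embryonic mesenchyme and the limb bud, and PRRX1 is known for inducing epithelial-to-mesenchymal transition (EMT). SETD2 is the methyltransferase that trimethylates lysine 36 of histone H3 in transcribed genes.

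The study measured POU2F2 and PRRX1 mRNA by RT-qPCR with the primer pairs shown here, which mark the stretches of both mRNAs, written 5′ to 3′. They were matched to GENCODE protein-coding transcripts on GRCh38.
POU2F2 forward: ggcccaactcatgttgacg
POU2F2 reverse: tgctgaggtagctggaatagatt
PRRX1 forward: ttatctctcctgggggacag
PRRX1 reverse: cttcagtctcaggttggcaa
POU2F2 spans bases 42086110 to 42196585 of chromosome 19 (minus strand), and its primers matched coding sequence at chr19:42117268-42117286 and chr19:42099579-42099601. They enclosed 183 bases in 9 of its 17 coding transcripts and 480 bases in 1 more. PRRX1 spans bases 170662728 to 170739421 of chromosome 1 (plus strand), and its primers matched at chr1:170726369-170726388, in coding sequence, and chr1:170736119-170736138. They enclosed 124 bases in 1 coding transcript and 196 bases in another, in which the reverse primer falls in the 3′ UTR, so this pair spans the exon by which PRRX1 isoforms differ. POU2F1 spans bases 167220876 to 167427345 of chromosome 1 and POU2F3 bases 120236640 to 120319945 of chromosome 11, both plus strand.

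Promoter sequence was read to see whether the genes share octamers or the homeodomain core TAATTA, in the 250 bases before each RefSeq start (GRCh38.p14), on both strands. The POU2F2 stretch, up to its annotated UTR, is at chr19:42132479-42132696 on the minus strand, and held neither motif. It lies inside the span of the gene given above, and no window at the outer end of POU2F2 was read. POU2F1 also has a start inside its gene whose stretch, at chr1:167328820-167329043 on the plus strand, held an octamer, in capitals and in reverse complement.
POU2F2 promoter: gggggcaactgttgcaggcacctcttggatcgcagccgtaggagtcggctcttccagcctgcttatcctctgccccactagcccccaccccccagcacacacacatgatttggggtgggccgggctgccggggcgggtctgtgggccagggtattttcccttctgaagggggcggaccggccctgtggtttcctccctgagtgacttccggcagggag
POU2F1 inner promoter: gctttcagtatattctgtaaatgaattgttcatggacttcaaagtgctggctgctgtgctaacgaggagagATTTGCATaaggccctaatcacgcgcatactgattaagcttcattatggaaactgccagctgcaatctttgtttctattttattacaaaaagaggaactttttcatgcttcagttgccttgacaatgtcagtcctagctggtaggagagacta
Neither motif was found in the windows of the outer POU2F1 starts, PRRX1 or PRRX2, and POU2F3 had no entry. The PRRX1 window, chr1:170663881-170664130, lies inside the annotated gene, with 0 bases before an annotated UTR. Octamers were present for 554 of 27305 genes with such a window (2.03%) and TAATTA for 1465 (5.37%). Among genes called higher in both KO clones, 19 of 703 (2.70%) held an octamer and 26 of 703 (3.70%) held TAATTA, beside 1.87% and 3.30% of the 10430 tested genes with a window. Among genes called lower in both clones the counts were 13 of 609 (2.13%) and 22 of 609 (3.61%). A match is a description of letters and not a binding site.

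Values are normalized counts, obtained by inverting the log2 transformation of the deposited table. Totals per library were 11674491 to 16758645, with an approximate 7600000 to 18400000 reads, and 3 counts were taken as the floor. SETD2 was 1852 and 2061 in WT, 1046 to 1130 in the KO libraries and 9764 to 10445 in Rescue1 and Rescue2. In the libraries labelled KO2 rescue it was 834 and 820, below the 1050 and 1052 of KO2, so the SETD2 mRNA does not show a rescue there. The WT replicates stood apart: of 9536 tested genes with a mean of at least 50, 810 differed by over 2-fold between them, and in KO1 1266 of 9633 did, against 398 to 650 in the other groups. The 12 mesenchymal genes listed for PRRX1-expressing cells summed to 41975 in WT replicate 1 and 6995 in WT replicate 2. Renal tubule markers summed to 19445 to 47552 in every library, with LRP2 at or under the floor throughout. Much of the sum came from KRT8 and KRT19 (means 16033 and 17359 in WT), so it says little about the other markers. AQP1 averaged 440 with TGF-β and 2.96 in eGFP. B cell markers summed to at most 20.1 in any library, and MS4A1, CD79B, PAX5 and SPI1 were never above the floor. Of the tuft cell genes, TRPM5, SH2D7 and CHAT were never above the floor.

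POU2F2 was high in the SETD2 KO clones, low in WT cells and on average lowest with TGF-β. KO1 had 3442 and 3256 normalized counts, KO2 had 2065 and 1617, and WT had 39.3 and 237. All 4 KO libraries lay above every other library, and KO1 lay above KO2 without overlap. On the log2(count + 1) scale KO1 exceeded WT by 5.10 (SE 0.53) and KO2 by 4.22 (SE 0.53), ratios of means of 24.2 and 13.3. These changes are given without a test, because the study singled out POU2F2 for its rise in KO. WT replicate 1 set part of their size: leaving it out gave 3.81 for KO1 and 2.94 for KO2, and leaving out WT replicate 2 gave 6.38 and 5.50. The residual SD of POU2F2 was 0.60 on the log2 scale, above that of 97.3% of the 3233 tested genes at a mean within 2-fold of its own, whose median was 0.16.

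With TGF-β, POU2F2 was 53.2 and 41.8, next to WT replicate 1 and below WT replicate 2. The change of -1.02 (SE 0.53) did not pass (limma adjusted p = 0.235), in a comparison that called 7.84% of 14585 tested genes and 0 of the 4 members, or 4115 genes at an unadjusted p under 0.05. Without WT replicate 1 it was -2.31 and called, and leaving out WT replicate 2 turned it to 0.26. Here and wherever a library is left out, the lone library of its group is assumed to vary like those of the other groups. The KO clones exceeded the TGF-β libraries by 5.68 (SE 0.46), a value without a test.

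Rescue1 had POU2F2 at 421 and 409 and Rescue2 at 417 and 337, all below the KO libraries and above both WT libraries. Rescue minus KO was -2.65 (SE 0.38). Rescue1 and Rescue2 were grown in other serum than KO, and the serum-matched eGFP line, at 279 and 357, differed from them by 0.32 (SE 0.46), with overlap. The libraries labelled KO2 rescue, in the serum of KO2, had 655 and 764, below KO2 and above all WT and Rescue libraries. KO2 rescue minus KO2 was -1.37 (SE 0.53). It stood beside the SETD2 values above, which were no higher than in KO2.

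PRRX1 was detected in the KO clones and in the line transduced with it, and was listed at 0 in 14 of 22 libraries. KO1 had 37.5 and 8.98 normalized counts and KO2 had 34.8 and 28.4, while WT, TGF-β, eGFP, SOX2, Rescue1 and Rescue2 libraries were all at 0. Groups did not overlap, but KO1 replicate 2 was near the minimum of 10 for testing, which PRRX1 passed through the groups where it is high. Against the floor of 3 counts per library, the excess of PRRX1 over WT was at least 7.75-fold (KO1) or 10.5-fold (KO2), given without a test for the same reason as POU2F2. For KO1 that limit was 2.99-fold without replicate 1 and 12.5-fold without replicate 2. In the libraries labelled KO2 rescue it was 0 and 0.662, at least 10.5-fold lower than in KO2, and in Rescue1 and Rescue2 at least 9.14-fold lower than in the KO clones.

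**Figure D1:**
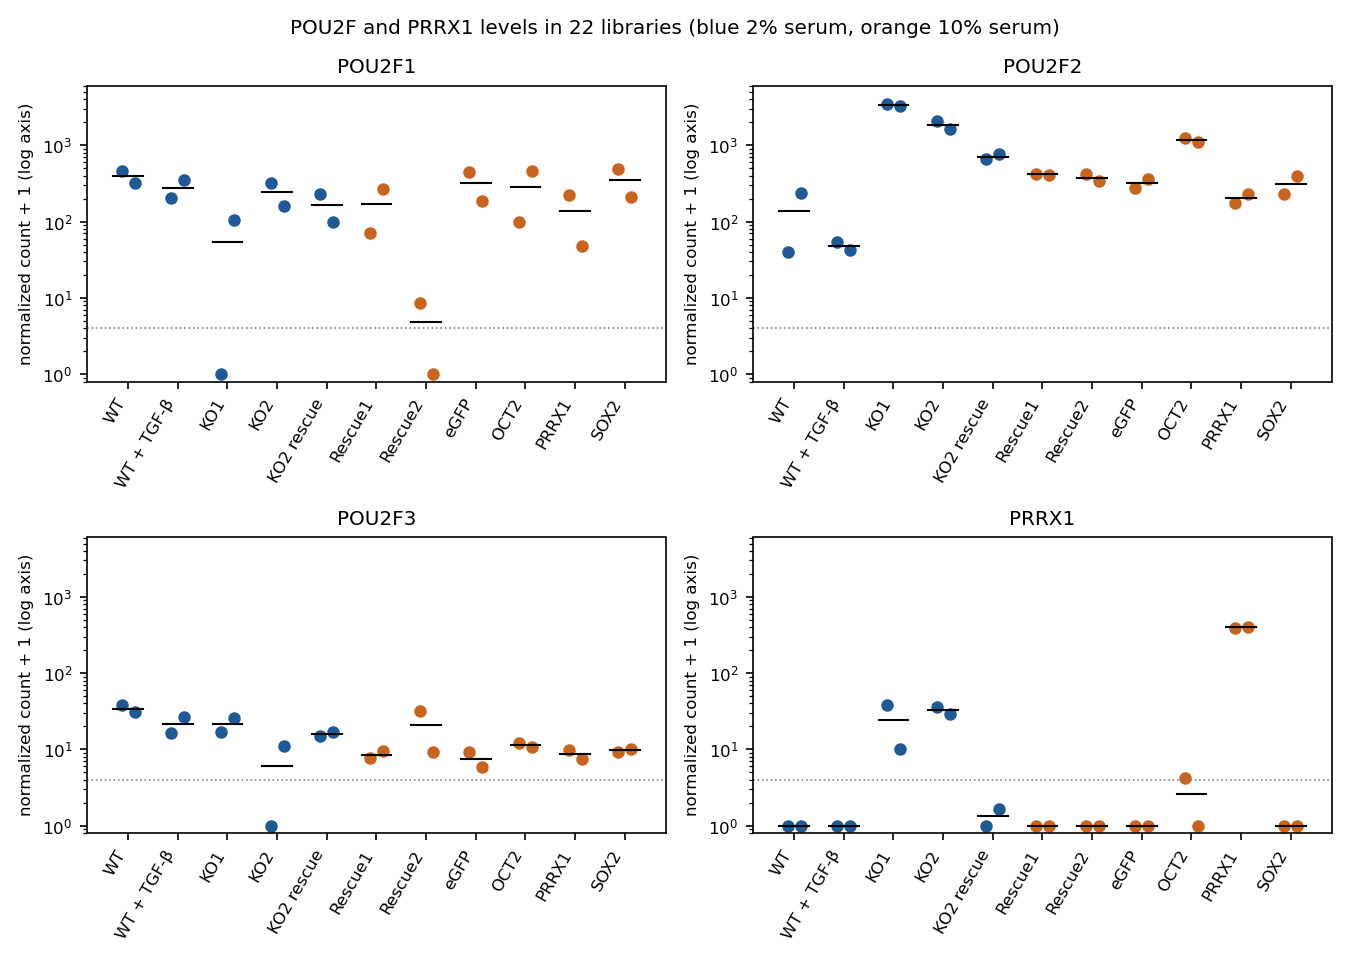
Normalized counts + 1 on a log axis for POU2F1, POU2F2, POU2F3 and PRRX1, 1 point per library (2 per group), with a line at the mean of the group and a dotted line at the floor of 3 counts; blue is 2% serum and orange 10% serum. POU2F2 is highest in KO1 (3442 and 3256), and PRRX1 is highest in the PRRX1 line (395 and 404).

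The transduced lines put these levels side by side with ectopic expression. The OCT2 line had POU2F2 at 1251 and 1121 against 279 and 357 in eGFP, without overlap, which checks its label. SLC22A2, a transporter also known as OCT2, was at 3.20 and 0 there and at most 4.53 in any library. The difference of 1.90 (SE 0.53) did not pass the adjustment over all genes (limma adjusted p = 0.42), in a comparison that called 0.0343% of genes, 5 in all, and 1026 at an unadjusted p under 0.05. That SE draws on the duplicates of all 11 groups, among them the WT pair (39.3 and 237), which is not compared here. As POU2F2 is the inserted gene, its difference is read only as a check of the label. Without eGFP replicate 2 the comparison called 32 genes. POU2F2 in the OCT2 line was below both KO clones. PRRX1 in the PRRX1 line was 395 and 404, at least 133-fold higher than in eGFP, and above all 4 KO libraries, by means of 399 against 23.3 and 31.6. This is a check of its label, and its call against eGFP is not read as a result. That comparison called 0.0411% of genes, 6 in all with PRRX1 itself among them, and 40 without eGFP replicate 2 or 9 without PRRX1 replicate 1. Serum differed between these lines and the KO clones. The insert and the endogenous mRNA may differ in length, so these are orders of counts and not of molecules.

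In the line of either factor the other factor was not called. PRRX1 was 3.20 and 0 in the OCT2 line, next to the floor. POU2F2 was 175 and 230 in the PRRX1 line, below both eGFP libraries, and the change of -0.65 (SE 0.53) did not pass (limma adjusted p = 1). The SOX2 line had POU2F2 at 232 and 395, a change of -0.06 (SE 0.53) that did not pass (limma adjusted p = 1) where 0.0206% of genes were called, 3 in all, or 35 without eGFP replicate 2 and 6 to 8 without any other of these libraries. SOX2 itself was not analysed here. The 5 genes called in the OCT2 line, named after their values were seen, were P3H3 (mean 499 against 35.1 in eGFP), SPSB1 (65.0 against 0), SLC26A9 (0 in eGFP), THBS2 (53.7 against 20.1) and the unnamed ENSG00000279389 (0 against 34.9). In the PRRX1 line their means were 404, 34.1, 22.3, 56.6 and 0. In the SOX2 line P3H3 (mean 370) and ENSG00000279389 (0) were also called, in the same directions. The OCT2, PRRX1 and SOX2 lines share the eGFP libraries as control.

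POU2F2 was also higher in eGFP than in WT, by 1.69 (SE 0.53, limma adjusted p = 0.0288), in a comparison that called 12.7% of genes. Transduction, selection and serum differ between these groups and cannot be told apart. The change was 0.41 and not called without WT replicate 1.

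POU2F1 had 464 and 322 in WT and a median of 208 over the 22 libraries, with 2 of them listed at 0. The median of POU2F2 was 402, with 0 libraries listed at 0. The POU2F1 duplicates disagreed more than those of most genes: KO1 had 0 and 105, Rescue2 had 7.62 and 0, and the OCT2 line 97.2 and 464. Its residual SD on the log2 scale was 1.84, above that of 98.2% of the 3645 tested genes with a mean within 2-fold of its own, whose median was 0.30. A gene with at least 100 counts in 1 duplicate was listed at 0 in the other for 21 to 88 genes per group (0.248% to 1.02%). KO1 minus WT was -5.24 (SE 1.63) and was called (limma adjusted p = 0.0187) beside 25.0% of all genes, with KO1 replicate 1 listed at 0. Without that library it was -1.87 and not called, and without WT replicate 1 or 2 it was not called either (-4.97 and -5.50). In KO2 POU2F1 was 321 and 161, a change of -0.76 (SE 1.63) that did not pass (limma adjusted p = 0.79). Against eGFP the Rescue clones were lower by -3.85 on the log2 scale (SE 1.41, limma adjusted p = 0.0531), in a comparison that called 13.1% of genes, and groups overlapped.

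POU2F3 was low throughout, at 36.7 at most. WT had 36.7 and 29.9, KO1 had 16.0 and 24.8, and KO2 had 0 and 10.2, so both clones lay below WT. KO2 minus WT was -3.35 (SE 0.88) and was called (limma adjusted p = 0.00927) beside 16.3% of genes; without KO2 replicate 1, listed at 0, it was -1.61, and without WT replicate 1 it was -3.21, neither of them called. KO1 minus WT was -0.70 (SE 0.88, limma adjusted p = 0.569). The difference between the clones, 2.65 (SE 0.88), did not pass (limma adjusted p = 0.0547), in a comparison that called 6.97% of genes. With TGF-β POU2F3 was 15.6 and 25.7, below both WT libraries, a change of -0.69 (SE 0.88, limma adjusted p = 0.693). It was 8.36 and 4.80 in eGFP, -2.21 against WT (SE 0.88, limma adjusted p = 0.0808), and at least 6.51 in each library of the OCT2, PRRX1 and SOX2 lines. Across KO against TGF-β (20.2% of genes called), rescue against KO (23.3%) and KO2 rescue against KO2 (4.17%), neither POU2F1 nor POU2F3 was called.

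**Figure D2:**
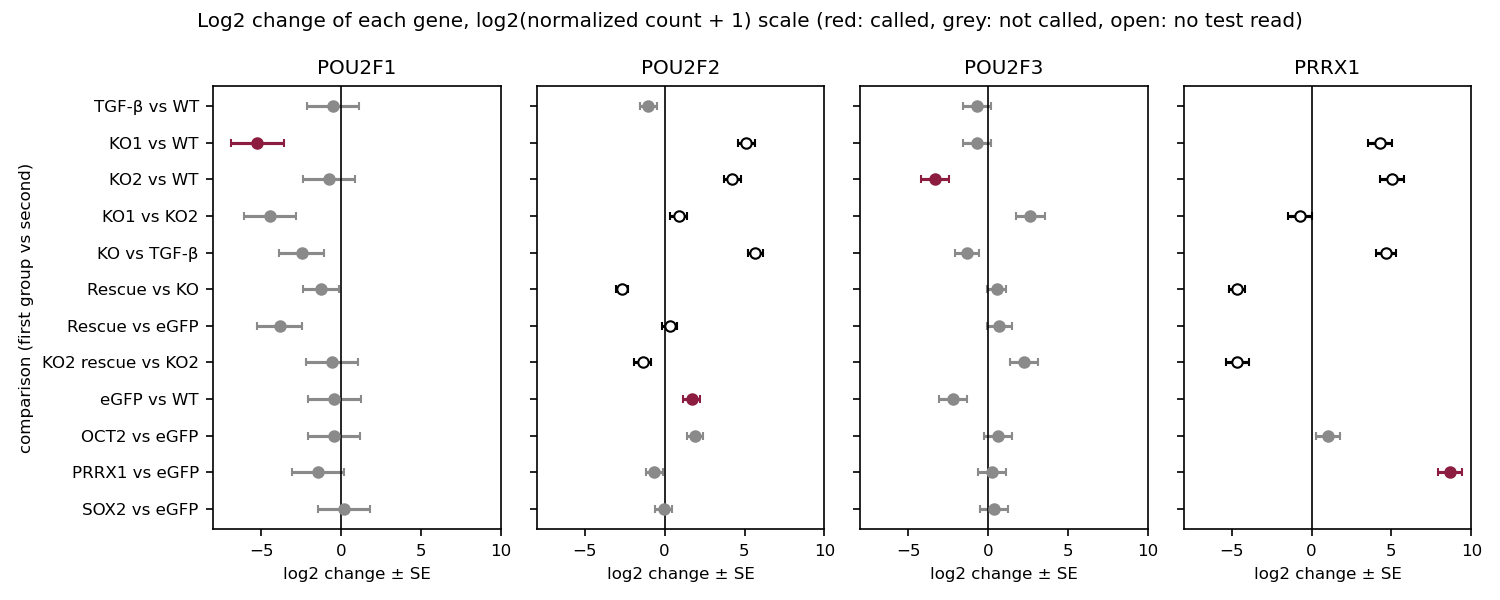
Log2 change (bars, SE) of POU2F1, POU2F2, POU2F3 and PRRX1 in 12 comparisons, on the log2(normalized count + 1) scale; red points were called, grey ones were not, open ones are the KO and rescue values of POU2F2 and PRRX1, read without a test, and comparisons with both groups at the floor are left blank. POU2F1 has the widest bars (SE 1.63 against 0.53 for POU2F2). POU2F2 and PRRX1 in the lines transduced with them are checks of the label, whatever their colour.

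Per kb of the longest coding transcript, POU2F2 was at 475 counts in KO1 and 261 in KO2, against 3.73 and 17.2 for POU2F1 and 5.73 and 7.78 for PRRX1. In WT POU2F2 was at 19.6 per kb and POU2F1 at 28.0. With the median coding transcript length in place of the longest, POU2F2 in WT was 80.6 and POU2F1 28.6, so their order in WT depended on the transcript taken.

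Groups ranked by POU2F2 level from KO1 and KO2 through the OCT2 line and KO2 rescue, each neighbour apart without overlap, to Rescue1, Rescue2, eGFP and SOX2, whose neighbours overlapped, and then the PRRX1 line, WT and TGF-β. All 11 groups of POU2F1 overlapped with their neighbours in rank.

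The cofactors of these proteins were then read from a list of 9. POU2AF1, POU2AF2 and POU2AF3 are coactivators of POU2F factors, HCFC1 forms complexes with POU2F1, and the SNAPC subunits work with POU2F1 at small nuclear RNA genes. Of 6 tested, 1 was called higher and 0 lower in each KO clone, where 25.0% (KO1) and 16.3% (KO2) of all genes were called, so the count is near that of other genes. The list's medians were 0.14 in KO1 and 0.07 in KO2, against 0.00 for all genes. The called gene was POU2AF3, at 25.5 and 22.9 in KO1 and 83.3 and 101 in KO2, and at 0 in WT, TGF-β, both Rescue clones and all 4 transduced lines. The KO1 level was at least 8.06-fold above WT and the KO2 level at least 30.7-fold above it. In KO2 rescue POU2AF3 was 17.8 and 23.8, below both KO2 libraries, a difference of -2.10 on the log2 scale (SE 0.51). POU2AF3 passed the filter on low values only through the KO clones and KO2 rescue, where it is high, so its values are a description and no support is drawn from its call. POU2AF1 and POU2AF2 never rose above the floor. HCFC1 was the 1 of 6 called lower with TGF-β (7.84% of all genes called), from 875 and 460 in WT to 261 and 187 (change -1.52, SE 0.38, limma adjusted p = 0.012). It was not called without WT replicate 1 or TGF-β replicate 2. SNAPC5 was also lower with TGF-β, with means of 103 against 176 (change -0.77, SE 0.31), and was not called. In eGFP against WT, where 12.7% of all genes were called, HCFC1 was called lower as well (-1.67, SE 0.38, limma adjusted p = 0.00438).

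Of 12 other POU genes, 3 were tested, and limma called 0 in KO1 and KO2 (2 and 1 at an unadjusted p under 0.05), beside 25.0% and 16.3% of all genes. All 3 fell in rescue against KO, where 23.3% of all genes were called (median -1.69 against 0.00 for all genes). POU3F3, a factor of the developing nephron and brain, was 1714 and 1687 in KO1, 1611 and 1590 in KO2, 366 and 348 in Rescue1 and 587 and 578 in Rescue2, a change of -1.85 (SE 0.07, limma adjusted p 4.4e-11). POU5F1, the pluripotency factor OCT4, which has pseudogene copies that may share reads, changed by -1.69 (SE 0.29, limma adjusted p 1.9e-04). Serum differed between the rescue and KO groups. POU3F3 was 1239 and 1013 in WT and 1539 and 1306 in eGFP, and POU5F1 was 91.0 and 106 in WT and 132 and 97.8 in eGFP. Rescue against the serum-matched eGFP line called 13.1% of all genes. POU3F3 (-1.63, SE 0.09) and POU5F1 (-1.71, SE 0.35) were called lower there, and POU6F1 (-0.49, SE 0.32) was not.

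Of 27 other paired-like homeobox genes, 4 were tested, and 13 never rose above the floor. SHOX2, a factor of limb and heart development, rose in both clones, at 102 and 168 in KO1 and 111 and 90.9 in KO2 against 20.9 and 30.4 in WT (KO1 change 2.33, SE 0.26, limma adjusted p 4.7e-06). It was higher still in eGFP, at 254 and 245, a change of 3.26 (SE 0.26, limma adjusted p 4.8e-07).

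Of 12 mesenchymal genes of PRRX1-expressing cells, 10 were tested. In KO1 5 were called higher and 1 lower, beside 25.0% of all genes called (median 1.20). In KO2 5 were called higher beside 16.3% (median 1.21), and with TGF-β 3 beside 7.84% (median 2.22). The median for all genes was 0.00 each time. In the PRRX1 line, where PRRX1 itself was above the KO level in counts, limma called 0 of 10 (median 0.26, 0 at an unadjusted p under 0.05). In the OCT2 line limma also called 0 of 10 (median 0.09, 1 at an unadjusted p under 0.05). Of all genes 0.0411% and 0.0343% were called there, so a count of 0 is no result about these 10. PDGFRA, a receptor of platelet-derived growth factor, was 231 and 139 in KO1 against 7.84 and 2.86 in WT (change 4.95, SE 0.63, limma adjusted p 1.5e-05) and 4.11 and 6.45 in the PRRX1 line against 0.611 and 3.95 in eGFP. With TGF-β it also rose, to a mean of 93.1 against 5.35 in WT (change 3.99, SE 0.63, limma adjusted p 4.0e-04), while PRRX1 was at 0. KO against TGF-β was 0.21 (SE 0.54) for PDGFRA. The gene called lower in KO1 was COL3A1, near the floor (means 0 against 4.97 in WT, change -2.37, SE 0.72). COL1A1 (-1.45, SE 0.86) and TNC (-0.85, SE 0.43) were lower there too, with overlapping libraries, and were not called. THY1, a surface glycoprotein of fibroblasts, was 1136 and 1135 in KO2 against 14.3 and 15.0 in WT (change 6.18, SE 0.37, limma adjusted p 8.2e-09), but already 1725 and 1895 in eGFP and 1506 and 1222 in the PRRX1 line. Among the tuft cell genes AVIL, an actin-binding protein, was 73.4 and 53.9 in KO2 against 10.1 and 7.08 in WT (change 2.75, SE 0.56, limma adjusted p = 0.00159), while POU2F3 was lower there. AVIL was also higher in eGFP than in WT, with means of 35.4 and 8.59 (change 1.91, SE 0.56, limma adjusted p = 0.0205).

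**Figure D3:**
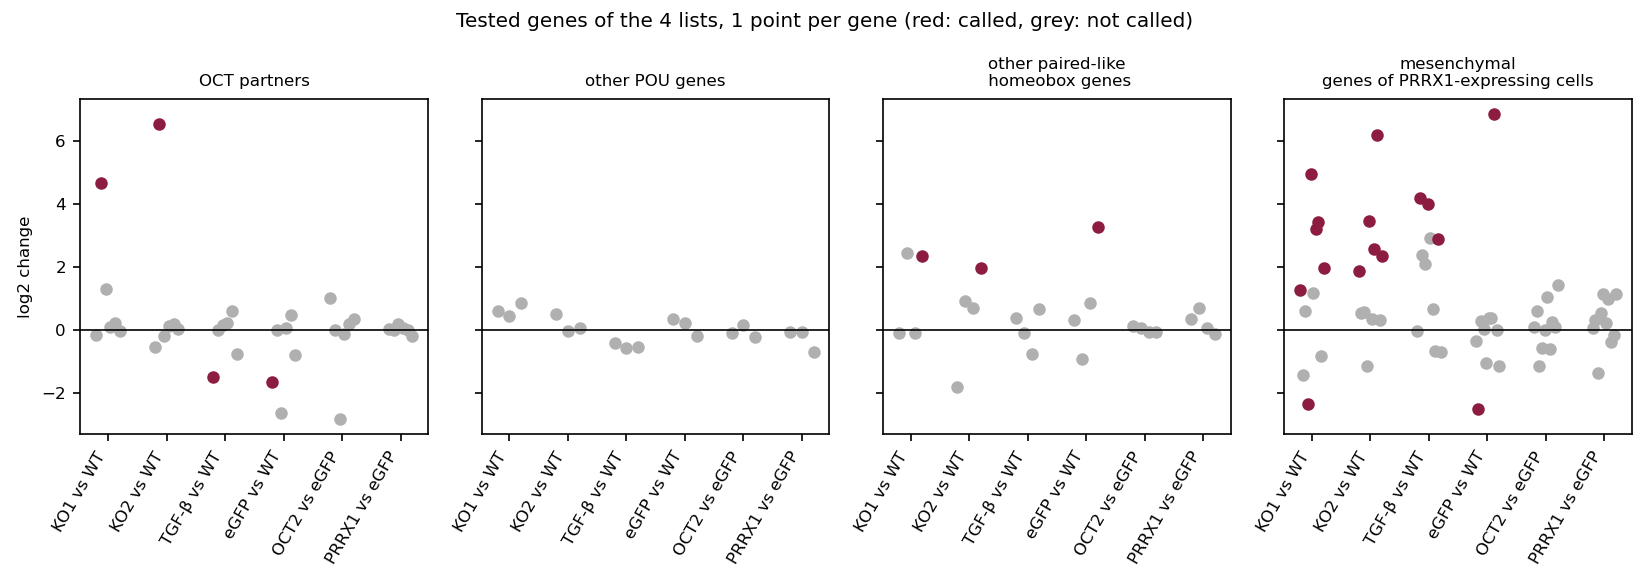
Log2 change of each tested gene of 4 lists in 6 comparisons, 1 point per gene; red points were called and grey ones were not. POU2AF3 is the red point of the OCT partners in KO1 (4.65) and KO2 (6.53), and in the OCT2 and PRRX1 lines, where 0.0343% and 0.0411% of all genes were called, no listed gene was.

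The genes with the pattern most like POU2F2 over 10 groups, leaving out the OCT2 line, were SMIM3 (Pearson r 0.986, Spearman rho 0.952), SNAP25 (0.983 and 0.891), a component of the exocytosis machinery, and CSNK1E (0.982 and 0.964), a casein kinase. Those most like PRRX1, leaving out the PRRX1 line, were PIGV (0.959 and 0.874), SLC35C2 (0.953 and 0.813) and the unnamed ENSG00000281618 (0.950 and 0.824). Over the 20 single libraries r was 0.941 to 0.962 for the genes of POU2F2 and 0.726 to 0.921 for those of PRRX1. For POU2F1 they were DOLPP1 (0.938 and 0.573), MED12 and ZCCHC3, and for POU2F3 VPS51 (0.903 and 0.855), NDUFA7 and SPCS3, over 11 groups. Over the 22 single libraries this likeness was not kept: r fell to between 0.205 (MED12) and 0.555 (ZCCHC3) for POU2F1 and between 0.311 (NDUFA7) and 0.487 (SPCS3) for POU2F3. These are descriptions over group means, searched among 9818 or 9819 genes, and the KO groups set much of each pattern for POU2F2 and PRRX1.

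**Figure D4:**
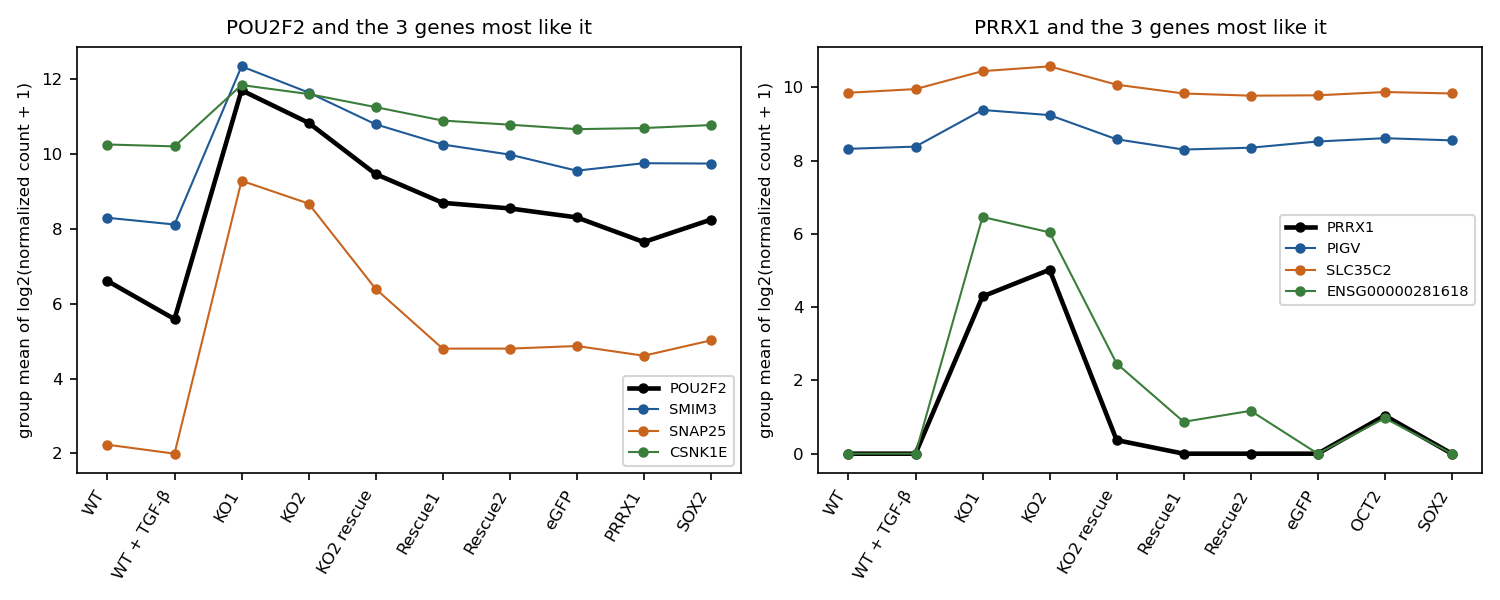
Group means of log2(normalized count + 1) for POU2F2 and for PRRX1 (black) with the 3 genes most like each, over 10 groups; lines join groups for reading only. All 3 genes most like POU2F2 peak in KO1, with SNAP25 at 627 normalized counts there against 3.05 with TGF-β.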

How the data were processed

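RNA-seq of 22 libraries was used, with groups taken from the labels. The authors quantified reads with Salmon 1.9.0 against Ensembl cDNA of GRCh38 and ran DESeq2 1.26.0 (versions from the submitters' processing notes). The deposited values are on a log2 scale, and their normalization is not given in the sources used here. That they are variance-stabilized was inferred from a floor of 11.32 shared by all libraries, and they were inverted to normalized counts. Strand handling in counting is not given in the sources used here, and an antisense RNA, POU2F2-AS1, is annotated at POU2F2.

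Tests used limma 3.58.1 (R 4.3.3, variance trend) on log2(normalized count + 1), with 1 mean per group over all 22 libraries, for the 14585 genes that reached 10 normalized counts in 2 libraries or more. A call needed a Benjamini-Hochberg adjusted p below 0.05 together with a log2 change beyond 1 in either direction. On simulated data for KO1 against WT over 14585 genes, 142 of 200 genes changed by 2 on the log2 scale were recovered (71%), with 5 unchanged genes called. Counting error and depth limit values near 3 counts.

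The members and gene lists were chosen with earlier results of these data known. All members are named; SETD2 and SLC22A2 are label checks. List genes named are among the up to 4 with the largest change in a comparison, called and with non-overlapping libraries; pattern genes are the 3 with the highest Pearson r among tested genes with a mean of at least 50. Levels between genes are per kb of GENCODE release 44 transcripts. Promoters are from RefSeq. Tables were handled in Python 3.11.15 with pandas 2.3.3. Alternatives were other pseudocounts, filters and scalings, the deposited log2 values, fewer libraries, a replicate block and each library left out.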

Additional observations from a re-analysis of the deposited data

How the results depend on the processing

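Of 584 alternative values for 44 changes of the members, 510 kept their call, or for values without a test stayed within the residual SD. The number of members called moved as follows. In PRRX1 against eGFP it counts PRRX1 itself, a check of the label. In KO and rescue comparisons it includes POU2F2 and PRRX1, whose values are read there without a test, so it is a description. On the deposited log2 values, where changes are compressed, it was 1 in KO1 against WT (3 before), 0 in KO2 against WT (3), 1 in KO against TGF-β (2), 0 in rescue against KO (2), and 0 in KO2 rescue against KO2, eGFP against WT and PRRX1 against eGFP (1 each), while calls over all 14585 genes went from 3653 to 178 in KO1 and from 2378 to 94 in KO2. With a mean of at least 50 normalized counts, which removes PRRX1 and POU2F3, it was 1 in KO2 against WT, in rescue against KO and in KO against TGF-β, 1 in rescue against eGFP (0 before), and 0 in KO2 rescue against KO2 and PRRX1 against eGFP. In KO1 against WT (3 before) it fell too, because PRRX1 was no longer tested. With the fit limited to the compared groups it was 1 in KO1 against WT, 1 in rescue against eGFP, 2 in KO2 rescue against KO2, and 0 in eGFP against WT and PRRX1 against eGFP. With a pseudocount of 5 it was 1 in rescue against eGFP and 2 in eGFP against WT, with library totals made equal 1 in rescue against eGFP, and with quantile normalization 1 in KO1 against KO2. Apart from the settings that shrink the table or the libraries, the cause was not tested. Leaving out 1 library gave 0 to 1 in TGF-β against WT, KO1 against KO2, rescue against eGFP and eGFP against WT, 1 to 2 in KO2 rescue against KO2, 2 to 3 in rescue against KO, KO against TGF-β and either KO clone against WT, 1 in PRRX1 against eGFP, and 0 in OCT2 or SOX2 against eGFP. Directions turned when 1 library was left out for POU2F2 with TGF-β (-2.31 to 0.26) and in SOX2 against eGFP (-0.45 to 0.32, with 0.11 between), for POU2F1 in rescue against KO (-2.95 to 0.41), KO2 rescue against KO2 (-1.21 to 0.02), eGFP against WT (-1.04 to 0.21), OCT2 against eGFP (-1.56 to 0.68, with 0.18 between) and SOX2 against eGFP (-0.48 to 0.77, with -0.46 between), and for POU2F3 in rescue against KO (-0.34 to 1.40) and PRRX1 against eGFP (-0.11 to 0.58). With KO1 alone as the reference of rescue, POU2F1 changed by 0.97 and POU2F3 by -0.80. Per kb of the median coding transcript, POU2F2 in KO1 was 1951 and PRRX1 in its line 114. Scaling to the same total moved the median of all genes by -0.392 in KO1 against WT and the calls there to 1161 higher and 3006 lower, from 1744 and 1909. Of 150 alternative values for 11 changes of listed genes, 133 stayed called and 0 turned. Replicate numbers did not pair the libraries (correlations of deviations -0.14 to 0.10 over 55 pairs of groups); the replicate block left the members called at 3 in KO1 and KO2 against WT and changed no member's call.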
